A study of Mus musculus with 6 samples.

Results

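Collagen chains were followed across the cell types of the mouse kidney cortex by single-nucleus RNA sequencing. They were taken by name, as all genes whose symbol is Col, digits, a, digits, which gave 44 of the 31053 genes in the count tables. Earlier results of these data were known when this choice was made. The knockout group held 3 FVB/N mice with both Klf4 alleles floxed (Klf4 fl/fl) and a Podocin-Cre transgene, and the control group held 3 FVB/N mice with Klf4 fl/fl and no Cre named. Both groups therefore carried the floxed alleles, and Cre was driven by the promoter of podocin, a gene of the podocyte. Podocytes are the filtering cells of the glomerulus, and Klf4 is a zinc finger transcription factor. Age and sex of the mice are not used here, and nothing in the labels names a shared litter or day. The comparison asks where in the cortex the collagen chains were read, and which of them differed after Klf4 loss in podocytes.

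Collagens are triple helices of 3 chains, and the chains that a cell makes set which kind of matrix it can build. Fibrillar chains form the fibres of connective tissue and of scars. Type IV chains form the network of basement membranes: the Col4a1 and Col4a2 chains assemble together in most basement membranes, the Col4a3, Col4a4 and Col4a5 chains assemble in the mature filtering membrane of the glomerulus, and the Col4a5 and Col4a6 chains assemble in the capsule around it. Multiplexins, Col15a1 and Col18a1, sit at the border between basement membranes and the matrix around them. In fibrosis of the kidney, stromal cells are a main source of fibrillar chains.

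The chains held 378509 UMIs (unique molecular identifiers, each standing for 1 RNA molecule read) over all 6 libraries. The 6 type IV chains held 257041 of these, the 11 fibrillar chains 54674 and the 6 type VI chains 30055. The 9 FACIT chains, which bind to the surface of fibrils, held 15621, the 2 multiplexins 9684, and the 3 chains of types VIII and X 5908. The 4 transmembrane chains held 2164 and the 3 other chains 3362. All 44 chains were read at least once. Col2a1 of cartilage, with 4 UMIs, and Col9a2, with 7 UMIs, were too sparse to describe further.

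Total UMIs were 52478581, 9356394 and 12604832 in knockouts 1, 2 and 3, and 62016616, 8270961 and 12393161 in controls 1, 2 and 3. After filtering, 18208, 4896 and 5873 knockout nuclei and 16671, 3742 and 5039 control nuclei remained. Knockout 1 and control 1 stood apart, with the most nuclei and a median mitochondrial share of 1.09% and 2.54% of UMIs, against 0.0845 to 0.162% in the other libraries. Any pair of libraries shared 5 to 132 cell barcodes, and knockout 3 and control 3 shared 74, or 1.39% of the smaller library. Klf4 itself had 5, 0 and 1 UMIs in podocytes of the knockouts and 1, 0 and 0 in podocytes of the controls, too few to check the labels. Nuclei were clustered without any collagen gene and named from markers of cell types, again without any collagen gene. Each name other than proximal tubule stands for nuclei that are like that cell type by its markers. Proximal tubule was given to the clusters in which the markers of no other class were raised. As the names were rebuilt here they can differ from those of the study. Levels below are in CPM, which sets the UMIs of a gene against all UMIs that a library holds in the same class. The markers of the proximal tubule summed to 16360 to 17590 CPM in that class of the knockouts and 15230 to 18730 CPM in that of the controls, above the other classes in each library. Levels are compared within a chain only, because a long gene gives more nuclear reads than a short one.

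Stromal nuclei, which pooled mesangial, smooth muscle, pericyte and fibroblast nuclei, had the highest median level of 15 of the 44 chains among the 11 classes large enough to compare. Parietal epithelial nuclei, of the lining of the glomerular capsule, were highest for 7 chains, proximal tubule for 6 and podocytes for 5. In 3 of the 15 stromal chains, Col1a1, Col3a1 and Col14a1, every library was above every library of the next class. The next class is that of the next highest median, and the remaining classes were not compared in this way. For Col1a1 the separation rests on few UMIs, 51 in stromal nuclei of the knockouts and 14 in those of the controls. Markers of the proximal tubule, the most numerous class, were present in the other classes compared. Their median over the libraries was 34.4% (thick ascending limb) to 78.8% (immune) of their proximal tubule level. Single libraries ran from 13.15% (parietal epithelial, knockout 3) to 93.8% (immune, control 2). In injured tubule nuclei, described below without a test, the median was 27.5%.

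**Figure D1:**
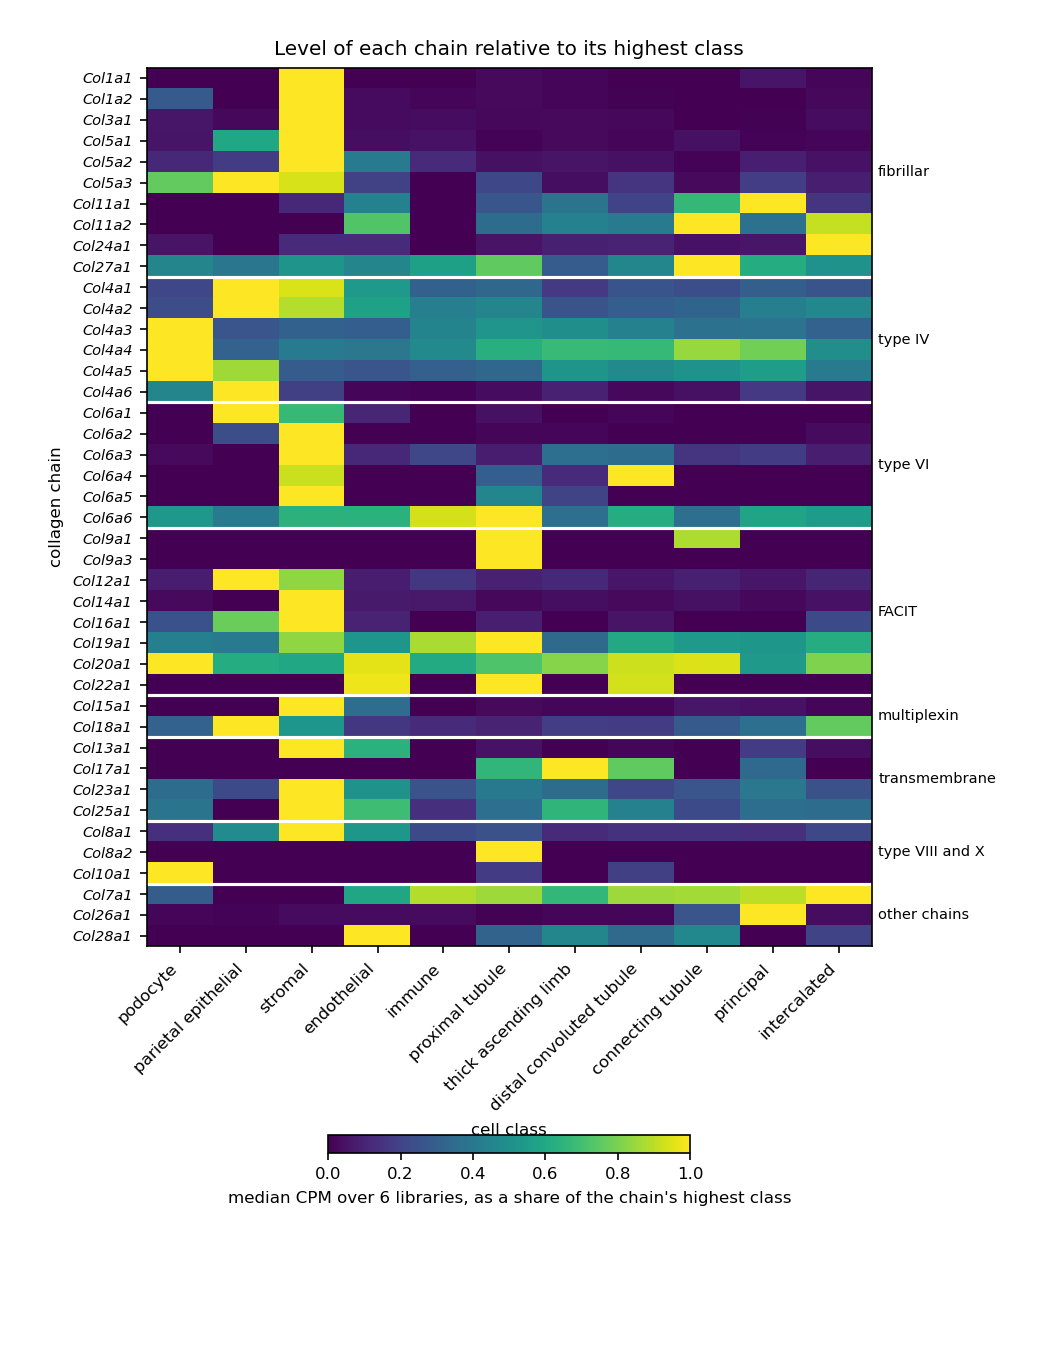
Heat map of the median level of each collagen chain over 6 libraries, as a share of the level in its highest class (colour), by cell class (columns) and by chain, grouped by family (rows). Stromal nuclei hold the highest level of Col1a1, Col1a2, Col3a1, Col5a1 and Col5a2, podocytes that of Col4a3, Col4a4 and Col4a5, and principal cells that of Col26a1. The 2 chains with a median of 0 in every class are not drawn.

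Among the fibrillar chains, Col1a1, a chain of type I collagen, had a median of 32.5 CPM in stromal nuclei (10.5 to 63.7 over the 6 libraries) and 1.87 CPM in principal cells, the next class. Col1a2, its partner chain, had 110.0 CPM in stromal nuclei (10.5 to 237) and 31.2 CPM in podocytes (13.0 to 51.9), so the 2 classes overlapped. Col3a1, the single chain of type III collagen, had 89.5 CPM in stromal nuclei (31.4 to 238) and 5.52 CPM in podocytes. The type V chains that seed fibrils followed the same order, with 61.0 CPM of Col5a1 and 50.6 CPM of Col5a2 in stromal nuclei. Col5a1 also had 36.5 CPM in parietal epithelial nuclei. Other fibrillar chains had their highest level elsewhere. Col24a1 had 60.6 CPM in intercalated cells (22.2 to 142), the acid and base transporting cells of the collecting duct, and 7.49 CPM in stromal nuclei. Col27a1 had 676 CPM in connecting tubule and 511 CPM in proximal tubule.

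By highest median, the type IV chains split between podocytes and parietal epithelial nuclei. For each chain the libraries of the highest class overlapped those of the next class. Col4a3 had a median of 1831 CPM in podocytes (1105 to 2304) and 958 CPM in proximal tubule, and Col4a4 had 1533 CPM in podocytes (1011 to 2228) and 1295 CPM in connecting tubule. Col4a5 had 353 CPM in podocytes and 303 CPM in parietal epithelial nuclei, which overlapped, while the third class, principal cells, had 196 CPM. Col4a6 had 117 CPM in parietal epithelial nuclei (37.6 to 310) and 53.5 CPM in podocytes (13.0 to 152.5). Col4a1 had 415 CPM in parietal epithelial, 391 CPM in stromal and 223 CPM in endothelial nuclei, and Col4a2 had 351, 312 and 201 CPM in the same classes. The podocyte thus had the highest median of the 3 chains of the mature filtering membrane and did not lead for Col4a1 and Col4a2.

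Each pair of type IV chains lies head to head in the genome (GRCm38). Col4a1 (chr8:11198423-11312826, minus strand) and Col4a2 (chr8:11312805-11449287, plus strand) overlap by 22 bases at their starts, and reads there could not be assigned with certainty because the use of strand in counting is not given in the sources used here. Col4a4 (chr1:82448423-82586849, minus strand) and Col4a3 (chr1:82586921-82722059, plus strand) are 71 bases apart. Col4a6 (chrX:141165403-141474076, minus strand) and Col4a5 (chrX:141475385-141689234, plus strand) are 1308 bases apart. The bases between Col4a4 and Col4a3 (chr1:82586850-82586920, minus strand, RefSeq GRCm38.p6) are shown because both chains of the pair start from them and both peaked in podocytes. Capitals mark the core letters bound by KLF factors, CACCC or GGGTG on the other strand.
Between Col4a4 and Col4a3: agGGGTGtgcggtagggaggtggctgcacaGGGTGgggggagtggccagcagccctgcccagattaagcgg
The 71 bases held 2 such matches. The motif is common: 52.01% of 32851 RefSeq promoters (250 bases before the start) held at least 1 match, and 26 of 38 promoters of the chains did (68.42%, from 35 of the 44 chains). A match is a run of letters and no evidence of binding.

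Some chains followed the proximal tubule. Col6a6, a type VI chain, had 270.3 CPM in proximal tubule and 253 CPM in immune nuclei, and Col19a1, a FACIT chain, had 112 CPM in proximal tubule and 97.7 CPM in immune nuclei. The immune level of Col4a3 was 84.6% of its proximal tubule level, that of Col4a4 79.6%, that of Col27a1 83.1%, that of Col6a6 86.9% and that of Col19a1 84.5%. These shares are medians and lie close to the 78.8% of the proximal tubule markers in the same nuclei. Over single libraries they ran from 60.5 to 136% for Col4a3 and from 38.1 to 106.9% for Col19a1. Other chains stood higher in immune nuclei, with medians of 94.8% for Col4a5, 101.2% for Col4a1 and 93.1% for Col4a2. Col18a1 stood at 110% and Col8a1 at 121.9%. Whether immune cells express these chains was not tested. In podocytes, by contrast, Col4a3 stood at 194.5% and Col4a4 at 174.9% of the proximal tubule level, above the 50.3% of the proximal tubule markers there. Podocytes were not alone in this. In the thick ascending limb Col4a3 stood at 90.5% and Col4a4 at 116.8%, with the markers at 34.4%. In connecting tubule Col4a4 stood at 138.6%, with the markers at 42.5%. Intercalated cells had Col4a3 at 59.4%, with the markers at 60.0%.

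Outside the fibrillar and type IV families, the chains peaked in different classes, the stroma, the proximal tubule, the parietal epithelium and the collecting duct among them. Col14a1, a FACIT chain, had 238 CPM in stromal nuclei (73.4 to 310) and 17.4 CPM in endothelial nuclei. Col6a3, the largest chain of the beaded filaments, had 111 CPM in stromal nuclei, and Col8a1, a network-forming chain of vessels, had 202 CPM in stromal, 107 CPM in endothelial and 97.4 CPM in parietal epithelial nuclei. Col15a1 had 85.2 CPM in stromal and 30.4 CPM in endothelial nuclei, and Col13a1, a transmembrane chain, had 18.3 and 11.7 CPM in the same classes. Col18a1, whose C-terminal fragment is endostatin, had 312 CPM in parietal epithelial, 237 CPM in intercalated and 163 CPM in stromal nuclei. Col26a1 had 390.5 CPM in principal cells (209.9 to 914) and 102 CPM in connecting tubule. Col12a1, a FACIT chain, had 30.4 CPM in parietal epithelial and 25.3 CPM in stromal nuclei.

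The 3 chains with most UMIs were Col4a4, Col4a3 and Col27a1 in podocytes, connecting tubule, distal convoluted tubule, proximal tubule, intercalated, endothelial, immune and cycling nuclei. Thick ascending and thin limb nuclei had Col4a5 in place of Col27a1, principal cells had Col26a1, and stromal nuclei had Col4a1. Parietal epithelial nuclei had Col4a1, Col4a2 and Col4a4. Injured tubule nuclei, named from markers of tubular injury, were led by Col18a1, which held 1381 of their 5665 chain UMIs (24.4%), then by Col4a4 and Col4a1.

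Knockout was then compared with control in each of 11 classes with at least 10 nuclei in every library. Cycling and injured tubule nuclei were described without a test, because how many there were followed the genotype. Cycling nuclei numbered 317, 242 and 267 in the knockouts and 17, 11 and 12 in the controls. The number of parietal epithelial nuclei followed the genotype too, at 0.925% of knockout and 0.240% of control nuclei. That class was nevertheless tested, as it had at least 10 nuclei in every library. Thin limb nuclei were too few. Over these classes, 137 combinations of chain and class had enough UMIs to be tested, and 2 passed a Benjamini-Hochberg adjusted p of 0.05 in edgeR's quasi-likelihood test. Over all genes and the same classes, 0.25% of 67660 combinations passed. The 2 chains were Col4a1 in parietal epithelial nuclei and Col15a1 in stromal nuclei, and both rose. No chain fell by that test in any class. Nothing in the labels says how the mice were raised or handled apart, so the p-values measure the spread between these libraries. Chains that passed the filter on low counts could do so through the group in which they were high, and the counts of tested chains below are descriptions.

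In parietal epithelial nuclei, Col4a1 had 519, 860 and 718 CPM in knockouts 1, 2 and 3 and 253, 188 and 310.0 CPM in controls 1, 2 and 3. The groups did not overlap, with knockout 1 the lowest knockout and control 3 the highest control. Col4a1 rose by 1.45 ± 0.32 on the log2 scale (SE, adjusted p = 0.0284, edgeR), from 322 knockout and 33 control UMIs. It was the only one of 10 tested chains to pass, in a class where 5.61% of all tested genes passed and 3.61% rose. Of all tested genes there, 15% had every knockout above every control and 12.1% every knockout below. With the replicate number as a block the call stayed at 1.38 (adjusted p = 0.00487), although in this class the libraries numbered 2 did not deviate together (correlation -0.026). The call was lost when knockout 2, control 1, control 2 or control 3 was left out, when each cluster took the class of its highest marker score, and when collagen genes were kept in clustering, and held under the other 9 of 15 alternatives. Over the 15 the log2 change ran from 0.67 to 1.71 and the adjusted p from 0.00254 to 0.200.

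Col4a2, the partner of Col4a1, had 400.4, 620.5 and 647 CPM in the knockouts and 289, 301 and 221 CPM in the controls. All knockouts lay above all controls, but the change of 0.97 ± 0.31 (log2, SE) did not pass (adjusted p = 0.0888, edgeR). The chains of the mature filtering membrane lay the other way. Col4a3 had 418, 346 and 275 CPM in the knockouts and 553, 903 and 576 CPM in the controls, a change of -0.90 ± 0.30 (adjusted p = 0.102, edgeR), and with the replicate block -0.87 (adjusted p = 0.0470). Col4a4 had 498, 461 and 266 CPM in the knockouts and 409, 866 and 576 CPM in the controls. Col4a5 had 234, 292 and 239 CPM in the knockouts and 313, 339 and 531 CPM in the controls. Of these 2 chains, Col4a5 did not overlap between groups, but neither passed (log2 changes of -0.48 and -0.56, adjusted p = 0.436 and 0.278, edgeR).

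Col4a6, which the capsule's membrane is known to hold, showed no such separation in parietal epithelial nuclei, with 72.1, 150.7 and 213 CPM in the knockouts and 84.2, 37.6 and 310.0 CPM in the controls. Col27a1, a fibrillar chain, had 166, 239 and 124 CPM in the knockouts and 289, 452 and 443 CPM in the controls, a change of -1.08 ± 0.33 (adjusted p = 0.0835, edgeR), and with the replicate block -1.07 (adjusted p = 0.0357). Col18a1 had 314, 310.2 and 372 CPM in the knockouts and 180.4, 75.3 and 797 CPM in the controls, which overlapped through control 3. Col5a3, a minor type V chain, had too few UMIs for the test, with 8, 5 and 16 UMIs in the knockouts and 0 in all 3 controls.

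Other values moved with the parietal epithelial class. The class held 128, 78 and 62 nuclei in the knockouts and 30, 16 and 15 in the controls. The summed level of its 8 own markers overlapped, at 2081 to 3226 CPM in the knockouts and 1468 to 3764 CPM in the controls. Proximal tubule markers summed to 2313 to 6630 CPM in the knockouts and 6908 to 12830 CPM in the controls. Markers of tubular injury summed to 1457 to 2650 CPM in the knockouts and 226 to 576 CPM in the controls, and cycling markers to 332 to 683 CPM in the knockouts and 0 to 44.3 CPM in the controls. Their part in the collagen values was not tested. The cluster was led by Ncam1, Fam19a1 and Akap12, and 4 of the 8 markers of parietal epithelial cells were raised in it. Of those markers, Ncam1, Akap12 and Dkk3 are also read in stromal cells. The naming therefore did not count raised stromal markers as making this cluster mixed. Whether the Col4a1 change differed from that of the proximal tubule was tested directly: the difference was 1.13 ± 0.43 (log2, SE, adjusted p = 0.320, edgeR interaction), so it was not shown to be larger. Without knockout 1 the difference was 1.43 (adjusted p = 0.0493, edgeR).

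In podocytes, where the podocin promoter drives Cre, none of the 10 tested chains passed (edgeR). Of these chains 4 had an unadjusted p under 0.05, and 0.417% of all genes tested in the class passed after adjustment. Unadjusted, 17.2% of all genes lay under 0.05. DESeq2 called Col4a6 (2.28 on the log2 scale, adjusted p = 0.0163). Col4a6 had 96.0, 72.6 and 152.5 CPM in the knockouts and 34.4, 13.0 and 16.0 CPM in the controls. Every knockout library was above every control, from 72 knockout and 28 control UMIs, and the change of 2.21 ± 0.45 (log2, SE) had an adjusted p of 0.0631 (edgeR). With the replicate block it was 2.13 (adjusted p = 0.0137), and it passed under 6 of 15 alternatives, with an adjusted p of 0.00081 to 0.256. Over all genes of the class, the block passed 159 of 4555, against 19 without it, and DESeq2 passed 144 of 18320.

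The other podocyte chains of the filtering membrane lay above the controls in each knockout library, as did 10.5% of all tested genes, while 15.5% lay below. Col4a5 had 402, 529 and 567 CPM in the knockouts and 254, 230.0 and 303 CPM in the controls (log2 change 1.00 ± 0.26, adjusted p = 0.114, edgeR). Col4a3 had 1979.6, 2117 and 2304 CPM in the knockouts and 1445, 1105 and 1682 CPM in the controls (0.67 ± 0.32, adjusted p = 0.303, edgeR). Col4a4 had 1687, 2044 and 2228 CPM in the knockouts and 1218, 1011 and 1379 CPM in the controls (0.80 ± 0.31, adjusted p = 0.222, edgeR). None of the 3 passed. Col4a2 lay lower in each knockout, at 67.4, 72.6 and 42.4 CPM against 98.4, 94.0 and 117 CPM in the controls (-0.63, adjusted p = 0.333, edgeR), and Col4a1 overlapped, at 69.5, 104 and 33.9 CPM in the knockouts and 102, 81.0 and 95.8 CPM in the controls.

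**Figure D2:**
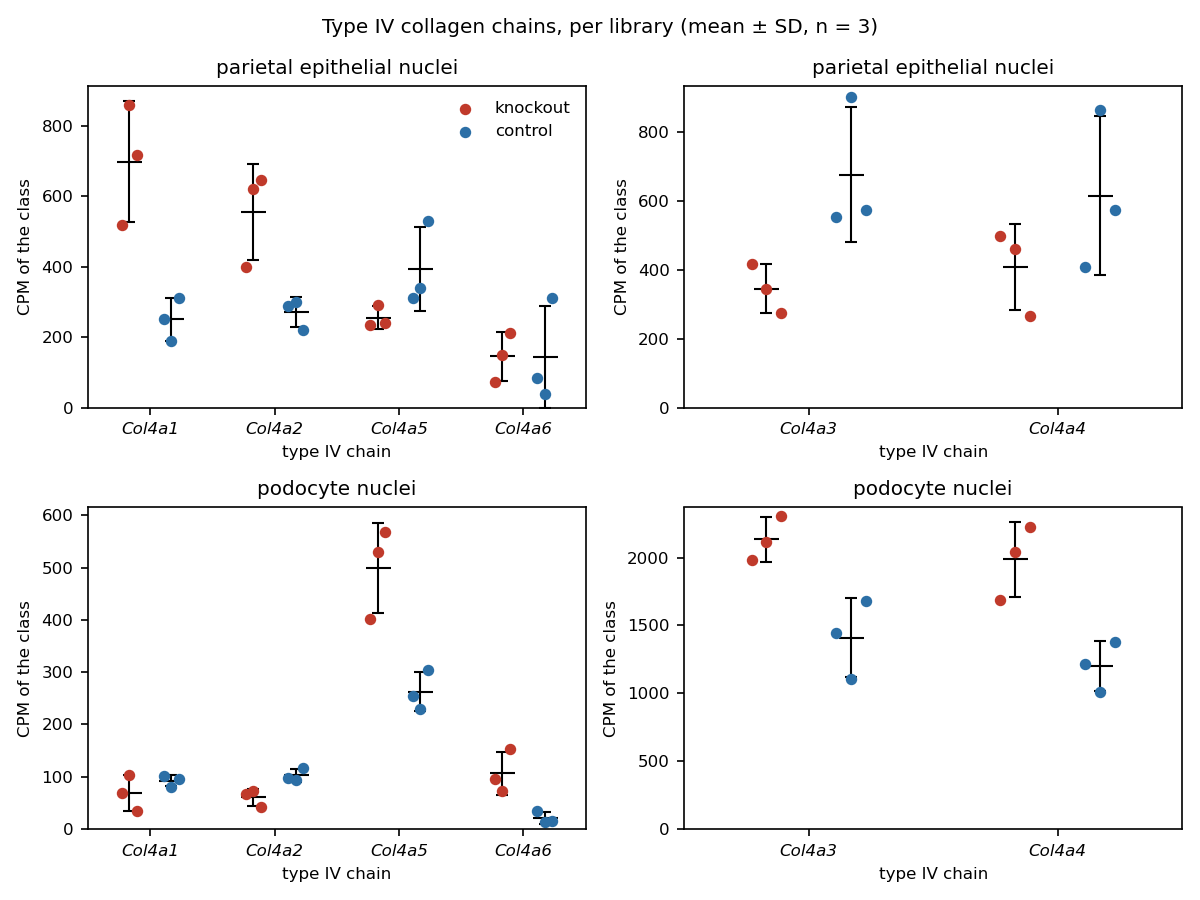
Level of the 6 type IV chains (CPM of the class) in parietal epithelial nuclei (upper panels) and podocytes (lower panels), with Col4a3 and Col4a4 on a scale of their own at the right. Points are libraries, knockout left of control, and bars are the mean ± SD (n = 3). Col4a1 of parietal epithelial nuclei sits at 519 to 860 CPM in the knockouts, above the controls at 188 to 310.0 CPM, and Col4a6 of podocytes at 72.6 to 152.5 CPM in the knockouts, above the controls at 13.0 to 34.4 CPM.

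Col18a1 in podocytes overlapped, at 155, 93.4 and 102 CPM in the knockouts and 102, 38.9 and 47.9 CPM in the controls (0.95, adjusted p = 0.277, edgeR). Col27a1 had 243, 374 and 212 CPM in the knockouts and 215, 771 and 580 CPM in the controls. Col1a2, below the filter, had 28.6, 51.9 and 33.9 CPM in the knockouts and 34.4, 13.0 and 16.0 CPM in the controls, and overlapped too. Among the fibrillar chains, Col1a1 and Col3a1 had at most 3 UMIs in any podocyte sum.

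The podocyte class held 3 clusters in unequal parts. The largest had 263, 57 and 80 nuclei in the knockouts and 81, 51 and 30 in the controls. The second had 15, 2 and 3 nuclei in the knockouts and 71, 5 and 14 in the controls, and the third 5, 6 and 3 in the knockouts and 15, 35 and 15 in the controls. Proximal tubule markers summed to 3202 to 7565 CPM in podocytes of the knockouts and 10620 to 12030 CPM in those of the controls, while podocyte markers summed to 37780 to 53470 CPM in the knockouts and 17280 to 43200 CPM in the controls. Markers of tubular injury summed to 457 to 559 CPM in the knockouts and 81.0 to 292 CPM in the controls. The part of these values in the podocyte levels was not tested. In the largest cluster alone, 1712 genes were tested, and the changes were smaller: 0.45 for Col4a3 (adjusted p = 0.537), 0.48 for Col4a4 (adjusted p = 0.537) and 0.56 ± 0.28 for Col4a5 (adjusted p = 0.532, edgeR). Col4a5 there had 416, 663 and 608 CPM in the knockouts and 272, 478 and 467 CPM in the controls, which overlapped. Col4a6 there had 95.3, 92.6 and 164 CPM in the knockouts and 76.7, 59.8 and 0 CPM in the controls and was below the filter.

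In stromal nuclei, Col15a1 rose. It had 167, 174 and 127 CPM in the knockouts and 26.8, 21.0 and 43.7 CPM in the controls, with the groups well apart. The change was 2.23 ± 0.32 on the log2 scale (SE, adjusted p = 0.0464, edgeR), from 180 knockout and 23 control UMIs, and with the replicate block 2.22 (adjusted p = 0.0168). It was 1 of 17 tested chains, in a class where 0.117% of all tested genes passed and 0.0979% rose. The call was lost without knockout 1, 2 or 3, without control 1 or 2, without both libraries numbered 1, with doublets kept and with shared barcodes left out, and held under the other 7 of 15 alternatives. Over the 15 the log2 change ran from 1.94 to 2.54 and the adjusted p from 2.1e-06 to 0.308. Its difference from the change in proximal tubule was 1.75 ± 0.56 (log2, SE, adjusted p = 0.947, edgeR interaction).

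Col15a1 (chr4:47208161-47313167, plus strand) and Col3a1 (chr1:45311538-45349706, plus strand) are shown with the 250 bases before their RefSeq starts (GRCm38.p6, chr4:47207762-47208011 and chr1:45311288-45311537), as the chain that rose in stromal nuclei and the fibrillar chain nearest to it in adjusted p. Capitals mark the KLF core as above, and TATAAA or TTTATA.
Col15a1: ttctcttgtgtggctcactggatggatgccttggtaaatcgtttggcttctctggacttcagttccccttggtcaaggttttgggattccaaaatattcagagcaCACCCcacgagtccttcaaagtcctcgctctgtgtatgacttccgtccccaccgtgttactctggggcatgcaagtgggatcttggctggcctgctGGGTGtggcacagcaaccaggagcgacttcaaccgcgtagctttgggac
Col3a1: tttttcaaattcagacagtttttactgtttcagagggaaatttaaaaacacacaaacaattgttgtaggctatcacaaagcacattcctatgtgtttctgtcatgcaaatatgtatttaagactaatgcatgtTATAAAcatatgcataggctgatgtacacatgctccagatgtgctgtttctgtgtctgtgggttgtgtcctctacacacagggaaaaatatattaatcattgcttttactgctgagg
The Col15a1 window held the KLF core 2 times and no TATA box, and the Col3a1 window held 1 TATA box, which 12.37% of all promoters hold, and no KLF core. GGGCGG or CCGCCC (32.74% of promoters) and CCAAT or ATTGG (33.85%) were also searched on both strands and matched neither window.

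Of the other fibrillar chains in stromal nuclei, none passed in edgeR. Col3a1 had 123, 237 and 238 CPM in the knockouts and 56.2, 31.4 and 35.8 CPM in the controls. The change was 2.04 ± 0.36 (log2, SE, adjusted p = 0.0602, edgeR), with the replicate block 1.94 (adjusted p = 0.0298), and DESeq2 called it at 2.12 (adjusted p = 0.0131). It passed under 6 of 15 alternatives, with an adjusted p of 1.7e-06 to 0.308. Over all genes of the class, the block passed 54 of 5108, against 6 without it, and DESeq2 passed 15 of 19291. Col5a2, a type V chain, had 66.4, 139 and 210 CPM in the knockouts and 34.8, 21.0 and 19.9 CPM in the controls (2.20 ± 0.49, adjusted p = 0.155, edgeR). Col5a1 had 66.4, 69.5 and 95.1 CPM in the knockouts and 34.8, 21.0 and 55.6 CPM in the controls (0.88, adjusted p = 0.563, edgeR).

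Those 3 chains separated the groups, and the type I chains did less so. Col1a2 had 109, 237 and 218 CPM in the knockouts and 61.6, 10.5 and 111 CPM in the controls, where control 3 exceeded knockout 1 (1.31 ± 0.45, adjusted p = 0.488, edgeR). Col1a1 was below the filter, with 27, 11 and 13 UMIs in the knockouts and 10, 1 and 3 in the controls. In all, 4 of the 5 tested fibrillar chains lay higher, with a median log2 change of 1.31, against 0.63 over the 17 tested chains and 0.00 over all tested genes of the class. Of the 17 chains, 8 had an unadjusted p under 0.05, where 8.07% of all genes did, and 8 had every knockout above every control, where 7.5% of all genes did.

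Col8a1 had 239, 243 and 353 CPM in stromal nuclei of the knockouts and 166, 115 and 83.4 CPM in those of the controls (1.09 ± 0.29, adjusted p = 0.268, edgeR). Col4a2 had 330.5, 469 and 511 CPM in the knockouts and 233, 252 and 294 CPM in the controls (0.69, adjusted p = 0.441, edgeR). Col18a1 had 234, 168 and 214 CPM in the knockouts and 109.8, 62.9 and 159 CPM in the controls (0.79, adjusted p = 0.507, edgeR). These 3 chains, of vessel networks, basement membranes and their borders, had every knockout above every control without passing. Col4a1 overlapped, at 321, 532 and 519 CPM in the knockouts and 206, 157 and 461 CPM in the controls, as did Col14a1, at 195, 301 and 281 CPM in the knockouts and 129, 73.4 and 309.9 CPM in the controls. Col6a3 lay lower in the fit, at 65.0, 98.4 and 123 CPM in the knockouts and 50.9, 157 and 150.99 CPM in the controls.

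**Figure D3:**
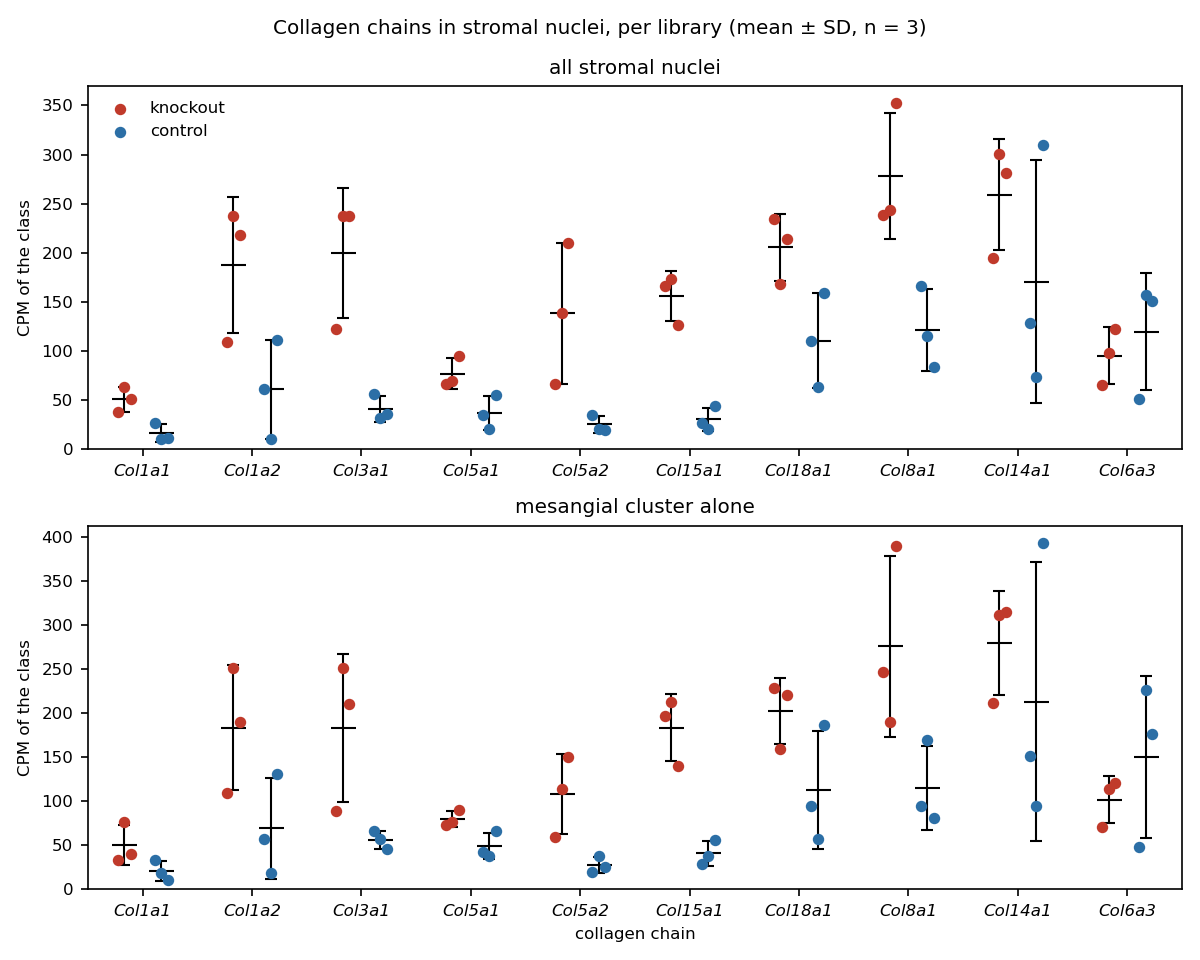
Level of 10 collagen chains (CPM) in all stromal nuclei (upper panel) and in the mesangial cluster alone (lower panel). Points are libraries, knockout left of control, and bars are the mean ± SD (n = 3). In all stromal nuclei Col15a1 sits at 127 to 174 CPM in the knockouts, above the controls at 21.0 to 43.7 CPM, and Col1a2 overlaps between the groups.

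The stromal class joined 3 clusters whose shares differed between libraries. The mesangial cluster held 285, 72 and 114 nuclei in the knockouts and 72, 37 and 113 in the controls, the cluster of smooth muscle, pericytes and renin cells 56, 15 and 24 in the knockouts and 37, 23 and 19 in the controls, and the fibroblast cluster 27, 10 and 13 in the knockouts and 9, 2 and 1 in the controls. In the mesangial cluster alone, Col15a1 had 162 knockout and 19 control UMIs and changed by 2.10 ± 0.36 (log2, SE, adjusted p = 0.0585, edgeR). Col3a1 there changed by 1.54 ± 0.43 (adjusted p = 0.332), Col5a2 by 1.99 (adjusted p = 0.302) and Col8a1 by 1.39 (adjusted p = 0.302), and none passed (edgeR). In the fibroblast cluster Col3a1 had 819, 668 and 792 CPM in the knockouts and 388, 0 and 0 CPM in the controls, which held 12 nuclei in all. Fibroblast markers in the whole class summed to 535 to 1172 CPM in the knockouts and 262 to 791 CPM in the controls, cycling markers to 70.6 to 249.5 CPM in the knockouts and 8.03 to 41.9 CPM in the controls, and proximal tubule markers to 8785 to 9330 CPM in the knockouts and 10080 to 12490 CPM in the controls. Their part in the stromal collagen values was not tested.

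In endothelial nuclei none of the 10 tested chains passed (0% of all genes did), and 3 had an unadjusted p under 0.05, where 4.49% of all genes did. Col18a1 had 74.1, 56.1 and 135 CPM in the knockouts and 25.4, 33.1 and 45.7 CPM in the controls, with every knockout above every control. Its change was 1.33 ± 0.39 (log2, SE, adjusted p = 0.999, edgeR). With the replicate block it was 1.36 (adjusted p = 0.0397, edgeR), the 1 alternative of 15 that passed. The block passed 64 of 5417 tested genes there, against 0 without it. Col4a2 had 216, 331 and 289 CPM in the knockouts and 179, 149 and 186 CPM in the controls (0.61, adjusted p = 0.999, edgeR). Col4a1 had 241, 342 and 259 CPM in the knockouts and 206, 171 and 183 CPM in the controls. Both chains of the vascular basement membrane had every knockout above every control, as did 6.83% of all tested genes there, without passing. Col15a1, below the filter there, had 28.9, 39.3 and 42.5 CPM in the knockouts and 31.8, 11.0 and 15.2 CPM in the controls.

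In intercalated cells none of the 11 tested chains passed in edgeR, where 0.0145% of all genes did. Col24a1 had 59.9, 88.4 and 142 CPM in the knockouts and 22.2, 29.5 and 61.3 CPM in the controls. Only knockout 1 and control 3 crossed. The change of 1.31 ± 0.41 (log2, SE) had an adjusted p of 0.351 (edgeR), or 0.0124 with the replicate block. The block passed 157 of 6878 tested genes there, against 1 without it. Type B intercalated cells, which secrete base, formed 2 clusters. In the larger one, of 548 nuclei, Col24a1 had 89.6, 136 and 141 CPM in the knockouts and 4.12, 16.9 and 56.7 CPM in the controls, on 40 and 15 UMIs. In the smaller one, of 346 nuclei, it had 122, 285 and 374 CPM in the knockouts and 49.1, 57.8 and 207 CPM in the controls, where control 3 exceeded knockout 1. Col19a1 had 79.8, 84.6 and 106 CPM in intercalated cells of the knockouts and 58.3, 54.0 and 53.7 CPM in those of the controls (0.62, adjusted p = 0.457, edgeR).

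In principal cells, where 0.0508% of all genes passed, none of 11 tested chains did. Col4a1 had 146, 172 and 155 CPM in the knockouts and 84.1, 68.8 and 104 CPM in the controls (0.82 ± 0.23, adjusted p = 0.392, edgeR). Col26a1, the chain read most in these cells relative to other classes, had 398, 242 and 209.9 CPM in the knockouts and 498, 382 and 914 CPM in the controls (-1.07 ± 0.34, adjusted p = 0.463, edgeR). In connecting tubule, where 0% passed, Col26a1 had 96.9, 63.3 and 42.7 CPM in the knockouts and 108, 135 and 333 CPM in the controls (-1.38 ± 0.43, adjusted p = 0.699, edgeR). Every knockout lay below every control for Col26a1 in connecting tubule, where 4.44% of all genes did so, and the groups overlapped in principal cells. Col19a1 in connecting tubule had 73.0, 63.3 and 57.0 CPM in the knockouts and 24.0, 65.4 and 43.0 CPM in the controls.

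In proximal tubule 27 chains could be tested and none passed, where 0.0306% of all genes did, and 6 chains had an unadjusted p under 0.05, where 7.34% of all genes did. Col5a3 had 4.56, 5.35 and 5.70 CPM in the knockouts and 1.36, 1.66 and 1.15 CPM in the controls (1.91 ± 0.38, adjusted p = 0.360, edgeR). Col4a1 had 163, 177 and 155.9 CPM in the knockouts and 114, 121 and 118 CPM in the controls (0.49 ± 0.14, adjusted p = 0.503, edgeR). Neither chain overlapped between groups, and 7.44% of all tested genes had every knockout above every control. Col19a1 had 164, 120.0 and 160.5 CPM in the knockouts and 104, 69.6 and 87.9 CPM in the controls (0.74, adjusted p = 0.513, edgeR).

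The proximal tubule class joined 10 clusters whose shares differed between libraries. The largest, of 7990 nuclei, held 1041, 248 and 69 nuclei in the knockouts and 5876, 555 and 201 in the controls. A cluster of 4206 nuclei held 3263, 706 and 57 in the knockouts and 55, 52 and 73 in the controls, a cluster of 2416 nuclei held 1802 from control 3, and a cluster of 1072 nuclei held 1051 from knockout 3. The part of this makeup in the class levels was not tested. In the largest cluster alone, Col4a1 had 162, 191 and 142 CPM in the knockouts and 115, 134 and 116 CPM in the controls, which did not overlap. In the cluster of 6738 nuclei led by Slc5a12 it had 150.3, 216 and 269 CPM in the knockouts and 85.3, 117 and 94.4 CPM in the controls, and in the cluster of 4362 nuclei led by Cyp7b1 the groups overlapped, at 176, 134 and 107.1 CPM in the knockouts and 145, 140.4 and 106.9 CPM in the controls. Col19a1 in the largest cluster overlapped, at 236, 89.1 and 248.9 CPM in the knockouts and 157, 76.4 and 116 CPM in the controls.

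In the distal convoluted tubule, where 0.0122% of all genes passed, Col18a1 had 68.5, 82.9 and 75.7 CPM in the knockouts and 39.4, 24.1 and 42.1 CPM in the controls (1.01 ± 0.26, adjusted p = 0.643, edgeR). Col19a1 had 82.5, 85.8 and 77.6 CPM in the knockouts and 45.3, 57.0 and 40.7 CPM in the controls. None of the 11 tested chains passed there. In the thick ascending limb, where 0.0128% passed, none of 11 did either: Col18a1 had 69.7, 61.7 and 86.2 CPM in the knockouts and 50.8, 42.7 and 39.3 CPM in the controls, and Col4a1 107, 109 and 67.3 CPM in the knockouts and 73.2, 56.9 and 51.4 CPM in the controls. In immune nuclei, where 0.0781% passed, none of 8 did. Col27a1 there had 373, 397 and 359 CPM in the knockouts and 334, 744 and 929 CPM in the controls. Col4a4 had 772, 853 and 1008 CPM in immune nuclei of the knockouts and 582, 521 and 695 CPM in those of the controls (0.47, adjusted p = 0.856, edgeR).

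Col18a1 lay higher in the fit in each class where it could be tested, from 0.16 in parietal epithelial to 1.33 in endothelial nuclei on the log2 scale, and passed in none. The knockout libraries all exceeded the controls in stromal, endothelial, distal convoluted tubule, thick ascending limb and proximal tubule nuclei, where 7.5%, 6.83%, 6.54%, 5.09% and 7.44% of all tested genes did so. In proximal tubule it had 48.4, 37.2 and 32.3 CPM in the knockouts and 26.1, 29.8 and 24.3 CPM in the controls. In intercalated cells, its second highest class, it overlapped, at 245, 231 and 273 CPM in the knockouts and 136, 93.3 and 243 CPM in the controls.

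**Figure D4:**
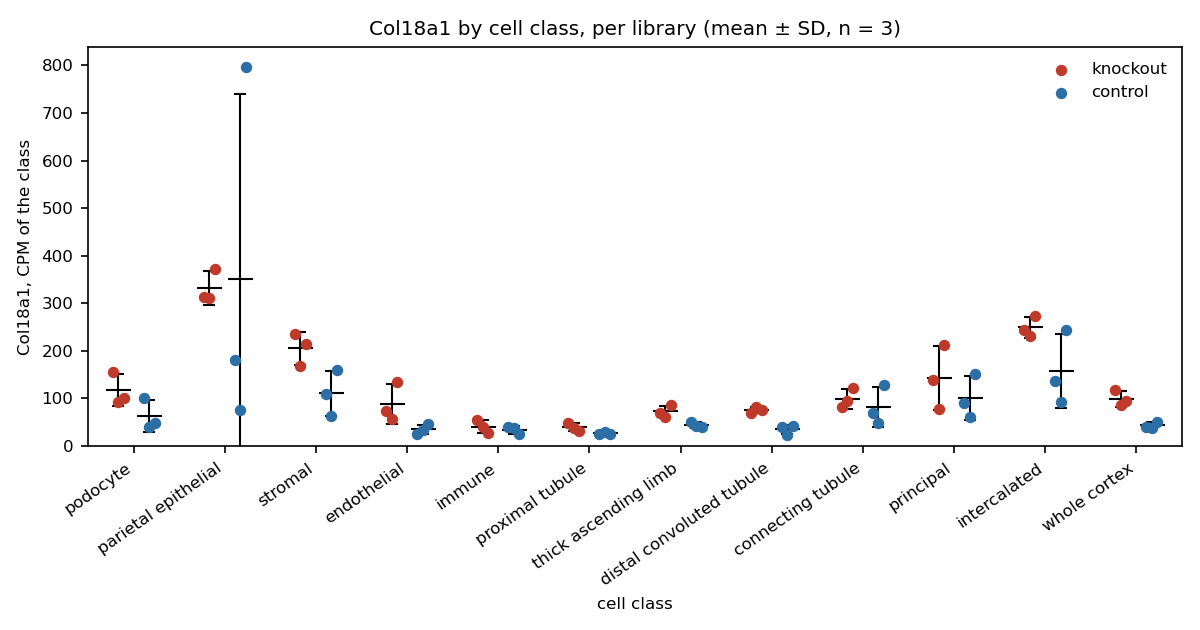
Level of Col18a1 (CPM of the class) by cell class and in the whole cortex. Points are libraries, knockout left of control, and bars are the mean ± SD (n = 3). In endothelial nuclei the knockouts sit at 56.1 to 135 CPM, above the controls at 25.4 to 45.7 CPM, while parietal epithelial nuclei of the controls run from 75.3 to 797 CPM and overlap with the knockouts.

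The nuclei of the whole cortex were also summed per library, where fewer nuclei of a type and less RNA per nucleus cannot be told apart. Of 36 tested chains, none passed in edgeR, where 0.173% of all genes did, while 13 chains had an unadjusted p under 0.05 against 9.88% of all genes. DESeq2 called 5 chains and edgeR with the replicate block 3. Over all genes DESeq2 called 464 of 26885 and the block 296 of 16157, against 28 of 16157 in the main fit. Col3a1 had 8.00, 8.49 and 8.52 CPM in the knockouts and 2.36, 1.67 and 2.34 CPM in the controls (1.88 ± 0.27, log2, SE, adjusted p = 0.0626, edgeR; 1.87 with the block, adjusted p = 0.0302). Col5a3 had 5.88, 7.34 and 7.83 CPM in the knockouts and 1.29, 2.32 and 1.74 CPM in the controls (1.95 ± 0.30, adjusted p = 0.0728, and 0.0257 with the block, edgeR). Col18a1 had 118, 86.6 and 93.7 CPM in the knockouts and 39.9, 38.1 and 51.4 CPM in the controls (1.15 ± 0.18, adjusted p = 0.0728, and 0.0262 with the block, edgeR).

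The 3 chains drew on different nuclei. Of the Col3a1 UMIs, stromal nuclei held 188 in the knockouts and 33 in the controls, proximal tubule 81 in the knockouts and 54 in the controls, and clusters of mixed markers 67 in the knockouts and 27 in the controls. Of the Col5a3 UMIs, proximal tubule held 116 in the knockouts and 49 in the controls, unnamed clusters 79 in the knockouts and 17 in the controls, injured tubule 40 in the knockouts and 1 in the controls, and parietal epithelial nuclei 29 in the knockouts and 0 in the controls. Of the Col18a1 UMIs, unnamed clusters held 1388 in the knockouts and 501 in the controls, injured tubule nuclei 1359 in the knockouts and 22 in the controls, and proximal tubule 1043 in the knockouts and 952 in the controls. The injured tubule class had 888, 120 and 110 nuclei in the knockouts and 14, 1 and 3 in the controls, too few to test. Its Col18a1 level was 617, 547 and 571 CPM in the knockouts, against 615, 1062 and 311 CPM in the controls on 19, 1 and 2 UMIs.

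Col1a1 had 3.48, 2.98 and 2.75 CPM in the whole cortex of the knockouts and 1.25, 0.644 and 0.608 CPM in that of the controls (1.72 ± 0.44, adjusted p = 0.206, edgeR). Col4a1 had 178, 219 and 179 CPM in the knockouts and 115, 115 and 131 CPM in the controls (0.62, adjusted p = 0.183, edgeR). Col15a1 had 9.50, 7.91 and 8.00 CPM in the knockouts and 5.10, 3.74 and 4.77 CPM in the controls (0.83, adjusted p = 0.287, edgeR). The 3 chains separated the groups, and so did Col1a2, at 8.31, 9.40 and 10.5 CPM in the knockouts and 4.99, 2.32 and 4.51 CPM in the controls. Col26a1 was the 1 tested chain with every knockout below every control, where 5.55% of all genes did so, at 19.5, 13.3 and 15.1 CPM against 21.2, 30.1 and 35.5 CPM in the controls (-0.90, adjusted p = 0.206, edgeR). With every knockout above every control stood 13 chains, or 13 of 36, where 10.8% of all genes did. The fit put 25 of the 36 higher, with a median of 0.26 on the log2 scale against -0.03 over all genes.

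**Figure D5:**
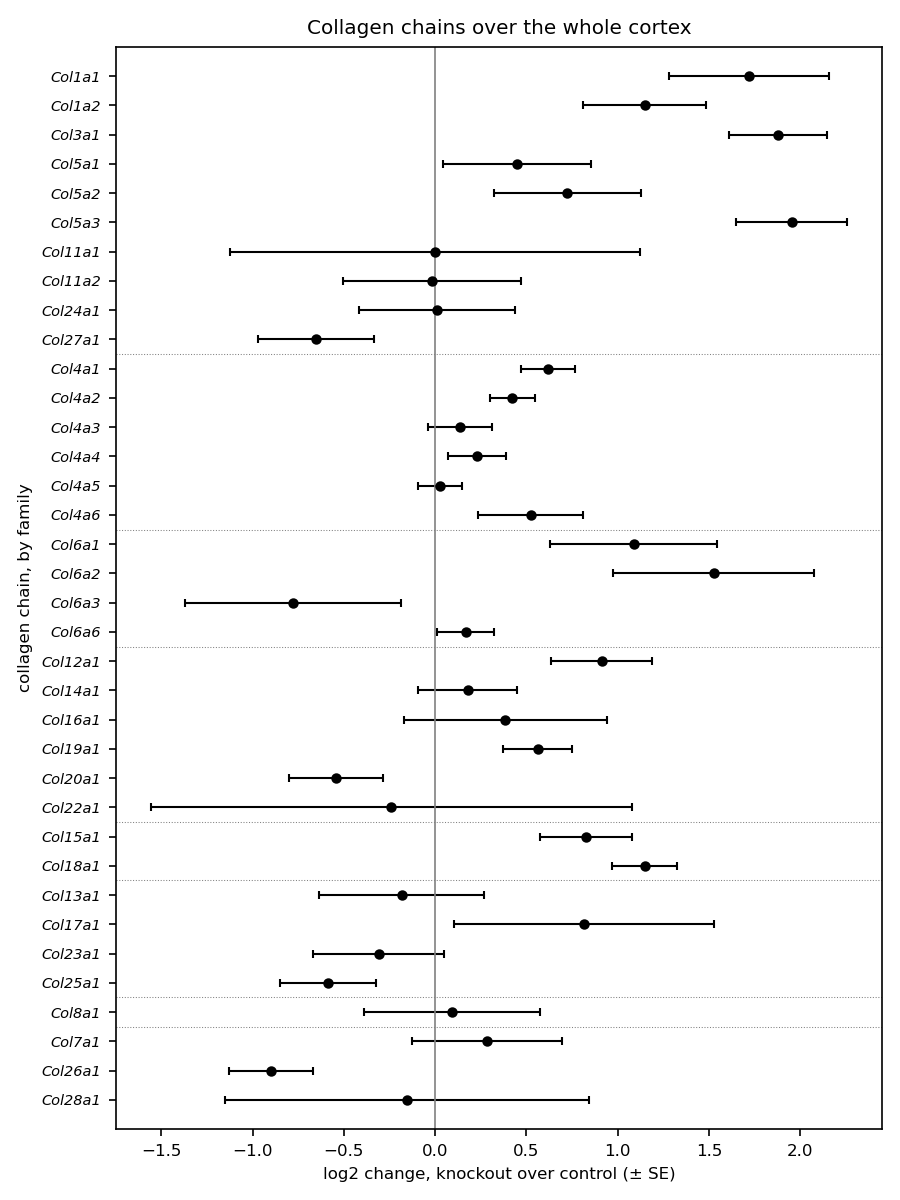
Log2 change, knockout over control, of each tested collagen chain in the whole cortex (points, with SE as bars), grouped by family. Col5a3 (1.95) and Col3a1 (1.88) lie farthest to the right among the fibrillar chains, and none of the 36 chains passed the adjusted p of 0.05.

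The genes that modify, fold, cut, cross-link, bind and break down collagen were described from a list of 53. In podocytes 17 were tested and 1 passed, where 0.417% of all tested genes did. The 1 was Plod2, a lysyl hydroxylase that prepares collagen for cross-linking. It had 445, 675 and 1110 CPM in the knockouts and 152.5, 97.2 and 133 CPM in the controls, with every knockout above every control. The change was 2.58 ± 0.38 (log2, SE, adjusted p = 0.0188, edgeR), from 414 knockout and 148 control UMIs. It held under 12 of 15 alternatives and was lost without knockout 2, control 2 or control 3. In the largest podocyte cluster alone, Plod2 had 463, 910.2 and 1206 CPM in the knockouts and 167, 378 and 243 CPM in the controls (1.81 ± 0.40, adjusted p = 0.150, edgeR).

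Loxl2, a cross-linking lysyl oxidase, had 114, 332 and 373 CPM in podocytes of the knockouts and 70.5, 29.2 and 37.3 CPM in those of the controls (2.44 ± 0.50, adjusted p = 0.0631, and 0.0145 with the replicate block, edgeR). Itga2, a collagen-binding integrin, had 172, 125 and 186 CPM in the knockouts and 72.2, 32.4 and 47.9 CPM in the controls (1.69, adjusted p = 0.0772, and 0.0145 with the block, edgeR). Timp3, an inhibitor of matrix proteases, had 1083, 986 and 881 CPM in the knockouts and 1799, 1435 and 3157 CPM in the controls (-1.03, adjusted p = 0.197, edgeR). The 17 genes had a median log2 change of 0.79, against 0.01 over all genes of the class.

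In the other classes none of the 53 passed in edgeR. In parietal epithelial nuclei Timp3 had 1042, 301 and 638 CPM in the knockouts and 2261, 1506 and 2745 CPM in the controls (-1.66, adjusted p = 0.0548, and 8.34e-05 with the replicate block, edgeR), and Adam10, a membrane protease, had 144, 195 and 168 CPM in the knockouts and 72.2, 0 and 133 CPM in the controls. In stromal nuclei Plod2 had 56.5, 86.8 and 99.0 CPM in the knockouts and 29.5, 10.5 and 15.9 CPM in the controls (1.76, adjusted p = 0.200, edgeR). Adamts2, which removes the N-terminal propeptide of fibrillar collagen, had 102, 110 and 162 CPM there in the knockouts and 29.5, 62.9 and 63.6 CPM in the controls. In proximal tubule Plod2 had 58.2, 60.0 and 61.3 CPM in the knockouts and 29.3, 28.6 and 18.5 CPM in the controls (1.22, adjusted p = 0.217, edgeR). Itgb1, the shared chain of the collagen-binding integrins, changed by 0.49 there (log2, adjusted p = 0.619, edgeR).

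The smallest p of the list in the remaining classes belonged to Timp3 (-0.82) and Plod2 (1.25) in intercalated cells, Timp3 (-0.43) and Plod2 (0.97) in principal cells, Itgb1, the shared chain of the collagen-binding integrins (0.52), and Plod2 (0.97) in thick ascending limb, and Itgb1 (0.80) and Timp3 (-0.50) in immune nuclei, all as log2 changes. In the distal convoluted tubule it was Pxdn, the peroxidasin that cross-links type IV collagen (-0.88), and Itgb1 (0.49), in connecting tubule Adamts3 (0.74) and Ppib, a proline isomerase (-0.97), and in endothelial nuclei Plod2 (0.83) and P4hb, a subunit of prolyl hydroxylase (-0.57). In the whole cortex none of 44 tested genes passed in edgeR. Plod2 had 57.7, 61.0 and 66.9 CPM in the knockouts and 28.5, 27.3 and 19.4 CPM in the controls (1.23, adjusted p = 0.0691, and 0.0302 with the block, edgeR). Loxl2 had 6.87, 8.94 and 9.21 CPM in the knockouts and 3.33, 3.74 and 3.56 CPM in the controls (1.17, adjusted p = 0.136, edgeR).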

How the data were processed

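The authors deposited raw UMI counts per gene and nucleus for 6 libraries, made with Cell Ranger 3.1.0 on mm10, per the submitters' processing notes, which also name Seurat without its role. The counts had no normalization. Annotation release and use of strand are not given in the sources used here.

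Kept were barcodes with 300 genes or more and no more than 5% mitochondrial UMIs. Doublets were removed by Scrublet score at 0.8% per 1000 barcodes, as its automatic threshold did not work: 3861, 186 and 191 in the knockouts and 2974, 103 and 195 in the controls. Leiden clusters (scanpy 1.11.5, igraph 0.11.9; 3000 variable genes, no collagen gene) in which no list of markers other than that of the proximal tubule had a mean log2 ratio to other nuclei of 0.3 or more were named proximal tubule, as the remainder. All other nuclei were clustered again and named where 3 or more markers were raised and their mean log2 ratio reached 1.0. The naming limits were chosen with the clusters in view, and the members and lists were chosen with earlier results of these data known. Mixed clusters (2016 nuclei) and unnamed ones (5891) entered only the whole cortex.

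UMIs were summed per library and class and tested with edgeR 4.0.16 (R 4.3.3; quasi-likelihood, TMM, filterByExpr) over all genes of a class, knockout over control, with Benjamini-Hochberg adjustment. Alternatives were DESeq2 1.42.0, no TMM, no low-count filter, each library left out, both libraries numbered 1 left out, the replicate block, doublets kept, the class of highest marker score, collagen genes kept in clustering and, added after the data were seen, shared barcodes left out and single clusters. Same-numbered libraries deviated together (correlations of 0.716, 0.397 and 0.457 for numbers 1, 2 and 3 over genes of the whole cortex), and the numbers were taken to pair them. Deviations were measured from the mean of the 3 libraries of a group. A deviation shared by the libraries numbered 1 alone therefore also raises the correlations of numbers 2 and 3. These correlations cannot establish the pairing that the block assumes. Knockout 2 correlated better with another control than with control 2 in the whole cortex, proximal tubule and parietal epithelial nuclei, and in the last the correlation of pair 2 was -0.026. The labels do not say what a number marks. Named with values were all chains that passed, in each class the 3 chains with most UMIs and the 2 with the smallest p, the type IV chains, Col1a1, Col1a2, Col3a1, Col15a1 and Col18a1, and from the list of 53 genes those that passed or the 2 with the smallest p. Other chains were chosen after their values were seen. Promoters and genes were read from RefSeq GRCm38.p6 and GENCODE M21 tables.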

Additional observations from a re-analysis of the deposited data

How the results depend on the processing

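The 2 chain calls over the classes became 4 with DESeq2, 3 with no TMM scaling, 15 with no filter on low counts, 4 without both libraries numbered 1, 8 with the replicate block, 1 with doublets kept, 1 with the class of highest marker score and 1 with shared barcodes left out, and 0 to 6 when 1 library was left out. With collagen genes kept in clustering there were again 2. Of these, Col15a1 in stromal nuclei was shared with the main calls, and the other was Col4a6 in podocytes. Calls over all genes moved too, given here for the main fit, DESeq2, no filter and the block in that order. Stromal nuclei had 6 of 5108, 15 of 19291, 103 of 19291 and 54 of 5108 genes. Podocytes had 19 of 4555, 144 of 18320, 333 of 18320 and 159 of 4555. Parietal epithelial nuclei had 132 of 2355, 103 of 16189, 280 of 16189 and 333 of 2355. In the whole cortex the count of 0 became 5 with DESeq2, 1 with no TMM scaling, 3 with the replicate block and 5 without both libraries numbered 1. Over all genes there, 28 of 16157 became 464 of 26885, 47 of 16157, 296 of 16157 and 464 of 16062 in the same order. The single call among the 53 processing genes became 7 with DESeq2, 2 with no TMM scaling, 8 with no filter, 3 without both libraries numbered 1, 4 with the block, 3 with collagen genes kept in clustering and 0 to 3 when 1 library was left out. The causes were not tested. The difference in Col4a1 change between parietal epithelial nuclei and proximal tubule ran from 1.08 to 1.54 when 1 library was left out, and without knockout 1 it was 1.43 (adjusted p = 0.0493). P4hb in endothelial nuclei ran from -0.86 (without knockout 1) to 0.075 (without control 1), against -0.57 with all libraries. Among single genes and settings, 623 kept direction and side of the threshold, 43 newly passed and 19 no longer passed. The block changed no call other than those printed. The count of 15 chains highest in stromal nuclei became 14 to 18 under the 3 settings in which it was recounted. Sums of parietal epithelial controls rest on 15 to 30 nuclei, and many chains there were too sparse to test.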

Other observations

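An unnamed cluster with Dock10 and Kcnip4 among its leading genes held 991, 315 and 195 nuclei in the knockouts and 91, 8 and 21 in the controls. Its Col4a1 level was 283, 392 and 304 CPM in the knockouts and 235, 198 and 279 CPM in the controls, and its Col18a1 level was 318, 246 and 198 CPM in the knockouts and 149, 198 and 109 CPM in the controls. Cycling nuclei had 494 Col4a1 UMIs in the knockouts and 28 in the controls, at 217 to 259 CPM in the knockouts and 149 to 297 CPM in the controls, which overlapped.

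Within the proximal tubule, Col8a1 was uneven. In 1 cluster of 6738 nuclei led by Slc5a12, it had 162, 141 and 72.1 CPM in the knockouts and 193, 164 and 59.6 CPM in the controls, with knockout 3 and control 3 the lowest of their groups. In the largest cluster, of 7990 nuclei, it had 12.7, 23.1 and 0 CPM in the knockouts and 9.002, 45.8 and 5.39 CPM in the controls. In the smooth muscle, pericyte and renin cluster of the stroma, Col18a1 had 307, 240.4 and 323 CPM in the knockouts and 134, 74.0 and 57.5 CPM in the controls. Col19a1 there had 430, 481 and 162 CPM in the knockouts and 228, 24.7 and 153 CPM in the controls. The cluster held 56, 15 and 24 nuclei in the knockouts and 37, 23 and 19 in the controls. The lowest of these values rest on very few UMIs, and none of them was tested.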
